A study of Mus musculus with 2 samples.

Results

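In the leukemia progenitors of vehicle-treated mice, 177 of 3914 kept cells carried high levels of the protease and peroxidase genes of the primary granule. Levels are counts of unique molecular identifiers (UMIs, each a counted transcript molecule). The cells were chosen by their measured counts: Mpo, Elane, Prtn3 and Ctsg together had to reach 8000 CPM, that is, UMIs scaled to a total of 1000000 per cell. In addition, Klf1 had to be at 0 and Camp, Ngp, Ltf and Lcn2 together below 20 UMIs. They were 4.52% of kept cells (exact Clopper-Pearson 95% interval 3.89 to 5.22) and held 6.19% of their UMIs. They are called granule-high cells here and are compared with the other 3737 kept cells of the same library.

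The study profiled single cells of I1DN, a mouse leukemia whose name the labels do not spell out, sorted as cKit positive and Cd11b negative. Mice were given vehicle or AG-120 (ivosidenib, an inhibitor of mutant IDH1) for 5 days, and each treatment has 1 library. Genotype, strain, age and the number of mice behind a library are not given in the sources used here. The submitters' stated question was how much the response to AG-120 varies from cell to cell.

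Granule-high cells were deeper than the rest, with a median of 19149 UMIs and 4129 genes per cell against 12950 UMIs and 3542 genes, while the median mitochondrial share was 3.09% against 3.11%. The vehicle library held 4146 barcodes and 56821757 UMIs, and 20 barcodes occurred in both libraries, 3 of them among the granule-high cells. Because the same counts chose the cells and there is 1 library, no difference below was tested. Intervals are 95% and cover counting error only, and ratios use UMIs pooled over a set and scaled to CPM of that set.

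Primary (azurophil) granules are the first granules that a developing neutrophil makes, at the promyelocyte stage. Their contents are myeloperoxidase and serine proteases, which pass through the endoplasmic reticulum (ER) and need heme or trimming before storage. The transcription factors C/EBPα and PU.1 (encoded by Spi1) set up this program in granulocyte-monocyte progenitors, and C/EBPε takes over as secondary granules appear.

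The promoters of the 4 genes that chose the cells are shown because these genes define the population. RefSeq sequences for GRCm38.p6 were searched over the 250 bases before each start for GAGGAA, the purine-rich core to which PU.1 binds, and for TTNNGCAA, a core of C/EBP sites, on both strands. Capitals mark GAGGAA, and the strand is that of the gene. Bases that lie in a GENCODE exon are not printed, which shortens 3 of the 4 windows.
Mpo, chr11:87793534-87793580, plus strand: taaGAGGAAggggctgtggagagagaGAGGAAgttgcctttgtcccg
Elane, chr10:79886062-79886246, plus strand: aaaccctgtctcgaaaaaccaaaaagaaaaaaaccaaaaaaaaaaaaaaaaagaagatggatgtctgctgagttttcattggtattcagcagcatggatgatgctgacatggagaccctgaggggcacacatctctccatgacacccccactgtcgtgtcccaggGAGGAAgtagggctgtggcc
Prtn3, chr10:79879417-79879613, plus strand: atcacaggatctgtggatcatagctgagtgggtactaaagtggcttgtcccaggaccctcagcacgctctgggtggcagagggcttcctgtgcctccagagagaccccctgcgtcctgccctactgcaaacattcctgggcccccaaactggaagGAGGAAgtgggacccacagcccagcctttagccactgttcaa
Ctsg, chr14:56102575-56102824, minus strand: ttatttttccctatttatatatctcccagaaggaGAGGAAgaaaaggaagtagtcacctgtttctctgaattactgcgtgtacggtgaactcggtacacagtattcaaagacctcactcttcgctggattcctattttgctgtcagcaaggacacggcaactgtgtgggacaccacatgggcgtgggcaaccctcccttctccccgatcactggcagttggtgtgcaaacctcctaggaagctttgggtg

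GAGGAA occurred in all 4 windows, 2 times in that of Mpo, and in 23.3% of the 32851 promoter windows of the table. TTNNGCAA occurred in 0 of the 4 windows and in 9.56% of all windows. Of the 20 genes with the highest ratios below, 15 had promoters in the table, and each motif was found for 5 of them. A match describes letters in a window, not a bound site.

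The 4 genes contributed unequally to the sum that chose the cells. Mpo, myeloperoxidase, supplied 57.8% of its UMIs, Prtn3, proteinase 3, 20.8%, Ctsg, cathepsin G, 16.3%, and Elane, neutrophil elastase, 5.12%. In granule-high cells Mpo ran from 2389 to 41847 CPM with a median of 9130, whereas the other cells had a median of 291. Ctsg ran from 878 to 6841 with a median of 2635, and the other cells had a median of 0. Prtn3 had a median of 2514 and was at 0 in 1 granule-high cell, against a median of 66.6 in the other cells.

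Elane behaved differently from its 3 partners. Its median was 120 CPM, its maximum 16751, and 58 granule-high cells had no Elane UMI. Among the other cells 98.7% had no Elane UMI, although 69.0% had an Mpo UMI. An Mpo UMI was seen in 14.8% of 88 Klf1-positive (erythroid) cells, defined by at least 3 Klf1 UMIs. Their shares are given below beside other myeloid genes as a background. That such cells lack these transcripts is assumed and was not tested.

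**Figure D1:**
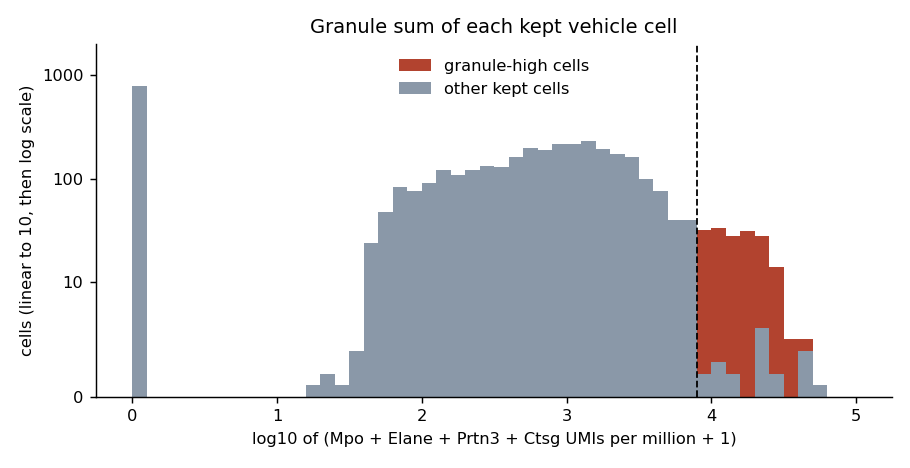
The histogram counts kept vehicle cells (vertical axis, linear to 10 and then logarithmic) by the log10 of the summed Mpo, Elane, Prtn3 and Ctsg CPM plus 1 (horizontal axis), with granule-high cells in red, other cells in grey, bars of both sets starting at 0, and the threshold of 8000 dashed. Cell numbers are nearly level across the threshold, without a gap. The grey bars to its right are cells removed by Klf1 or by the secondary granule genes.

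The threshold fell on a continuous distribution. The 3 granule-high cells nearest to it had sums of 8050.5, 8062 and 8063 CPM, and the 3 nearest cells below it had 7955, 7922 and 7902. Within 10% of the threshold lay 20 cells below and 15 above. Of 195 cells at or over it, 2 were removed by Klf1, an erythroid factor, and 16 by the secondary granule genes.

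The markers given for the population were measured in it. Hp, haptoglobin, which took no part in the rule, had a median of 387 CPM in granule-high cells and 0 in the others. Cebpa, which encodes C/EBPα, had medians of 38.8 and 0, and 79 of the 177 granule-high cells had no Cebpa UMI. Kit, the sorting antigen cKit, was at 74.9 CPM against 57.2, and Itgam, which encodes the excluded antigen Cd11b, at 10.9 against 5.16.

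Of 8002 genes with at least 500 UMIs over the kept vehicle cells, 381 (4.76%) were at least 1.5-fold higher in granule-high cells and 1362 (17%) at least 1.5-fold lower. The median log2 ratio over all 8002 genes was −0.18, and log2 ratios below are read against that value. With ratios centred on that median, 617 genes were higher and 842 lower, so the share of higher among the genes past 1.5-fold moved from 21.9% to 42.3%. These counts are the background for the gene lists below.

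The highest ratios belonged to Prg2 and Cebpe. Cebpe, the C/EBP member of later granulocyte development (chr14:54710360-54712174, GRCm38), was at 173 CPM in granule-high cells and 5.48 in the others, a ratio of 31.7 (27.5 to 36.5). Thinned to 6500 UMIs per cell, it was seen in 46.5% of granule-high cells (38.8 to 54.3), in 1.36% of the others and in 0 of 88 Klf1-positive cells, which allows a share of up to 4.11%. Before thinning the shares with a Cebpe UMI were 65.0%, 2.11% and 2.27%, at median depths of 19149, 12950 and 20883 UMIs.

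Prg2, which encodes the eosinophil major basic protein, rested on 1 cell. It had 1001 UMIs in granule-high cells, of which 976 lay in a single cell and the next 2 cells had 11 and 7. Only 7 granule-high cells had a Prg2 UMI. That cell also held 43 UMIs of Prg3, 166 of Mpo, 19 of Cebpe and 0 of Elane and Epx. The pooled ratio of 91.9 became 2.31 (1.45 to 3.53) without it. The other cells were left whole in that ratio, although 143 of their 165 Prg2 UMIs also lay in a single cell. Only 11 of the other cells had a Prg2 UMI, so the ratio rests on few cells on both sides.

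The next genes are described by the kind of protein, beginning with secreted proteins and surface receptors. Slpi, an inhibitor of granule proteases, was 17.8-fold higher, at 224 CPM against 12.6. Hp was 14.7-fold higher (13.8 to 15.7), at 511 against 34.8. Clec12a, an inhibitory lectin receptor of myeloid cells, was 13.7-fold higher (12.6 to 14.9), and after thinning it was seen in 70.0% of granule-high, 10.1% of other and 2.27% of Klf1-positive cells. C3, the central complement component, was 13.2-fold higher (11.9 to 14.6). Of the Fc receptor genes, Fcgr2b was at 115 against 9.59 CPM and Fcgr3 was 11.5-fold higher.

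Other leading genes encode enzymes and regulators. Atp8b4, a lipid flippase, was 19.2-fold higher and was seen in 88.1% of granule-high cells before thinning. Rgcc, a cell cycle regulator, was 17.8-fold higher. Hdc, histidine decarboxylase, was 10.3-fold higher, at 227 against 22.2 CPM, and Gstm1, a glutathione transferase, 10.8-fold. The remaining genes of the leading 20 were Prss57, Anxa3, Emb, Tgfbi, Mgst1, Igsf6, Ms4a6c and Alas1, with ratios from 8.01 to 11.2.

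**Figure D2:**
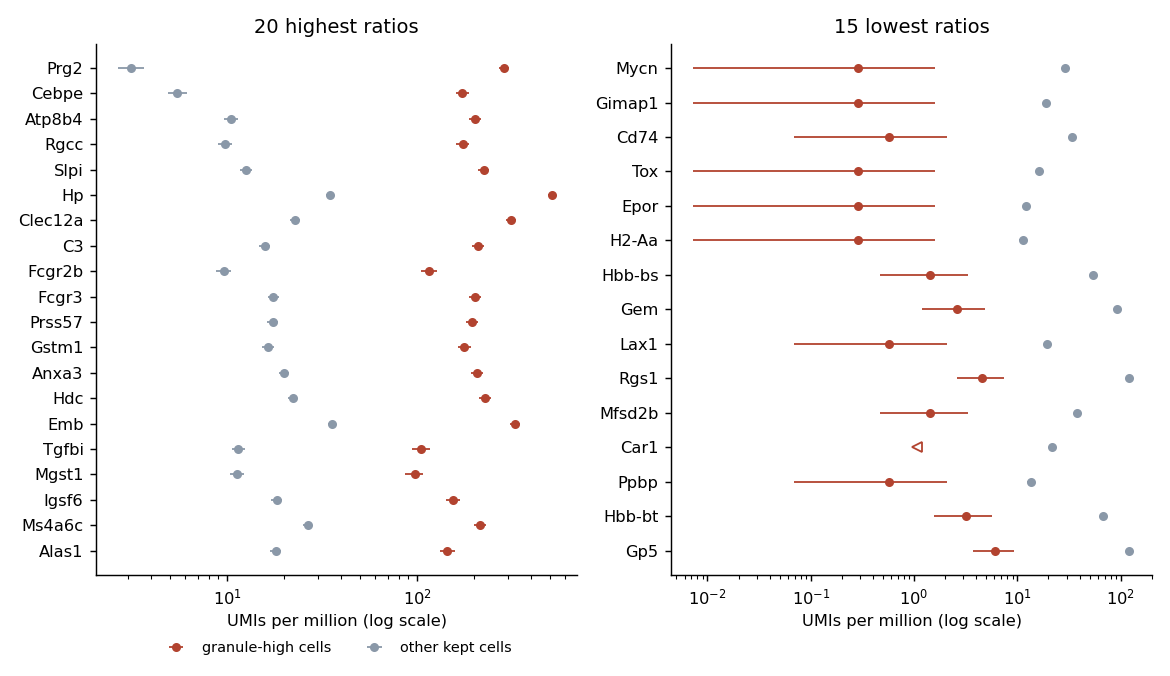
Points give pooled CPM (log scale) in granule-high cells (red) and other kept vehicle cells (grey) for the 20 highest ratios (left) and the 15 lowest (right), with exact Poisson 95% intervals; an open triangle marks the upper limit for Car1, at 0 UMIs. All 20 genes on the left lie between 97.0 and 511 CPM in granule-high cells, and the lowest genes on the right rest on 0 to 21 UMIs.

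The 15 lowest ratios rest on few UMIs in granule-high cells. Mycn, a MYC family factor, had 1 UMI in granule-high cells and 1532 in the others (29.0 CPM), a ratio 101-fold lower with a counting interval of 18.1 to 3998. Gem, a small GTP-binding protein, was 36.0-fold lower (19.0 to 78.8), and Rgs1, a regulator of G protein signalling, 26.2-fold lower (16.1 to 45.8). Gp5, a platelet glycoprotein, was 20.2-fold lower (13.2 to 32.6). Hbb-bs and Hbb-bt, the adult beta globins, are near-identical copies between which counting can split reads, and had 5 and 11 UMIs in granule-high cells. The MHC class II genes Cd74 and H2-Aa had 2 and 1 UMIs. Car1, a carbonic anhydrase of red cell precursors, had 0 UMIs against 21.6 CPM and was at least 25.1-fold lower, counting 3 UMIs as the limit that 0 allows.

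Among 20 companions of the primary granule, all were measured, 11 were higher, 1 was lower and 8 lay between. Their median log2 ratio was 0.68, beside −0.18 for all genes. Besides Hp, Clec12a and Igsf6, the widest differences were in Prss57, a granule serine protease, at 11.2-fold (10.1 to 12.4), and Plac8, a myeloid protein, at 2702 against 519 CPM. Lyz2, lysozyme, was 2.33-fold higher, Cst7, an inhibitor of cathepsins, 2.49-fold, and Ms4a3, a membrane protein of granulocyte progenitors, 1.68-fold. Cd63, a tetraspanin of the granule membrane, was 1.58-fold higher and Serpinb1a, an inhibitor of elastase-type proteases, 1.62-fold.

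Other members of the list were lower or nearer to the other cells. Srgn, the proteoglycan core that holds granule contents, was at 1454 CPM against 1781. Vamp8, a vesicle fusion protein, was at 382 against 509. Unc13d, which primes granules for release, was 1.68-fold lower (1.42 to 2.00), but centred on the median gene 0 genes of the list were lower and 15 higher. Ctsc, the protease that activates the granule proteases, was 1.36-fold higher, under the 1.5-fold used here.

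Genes of the ER, where granule proteins are folded, were higher as a group. Of 25 measured genes, 16 were at least 1.5-fold higher and 0 lower, and all 25 log2 ratios were above 0, with a median of 0.75. Calr, a chaperone of glycoproteins, stood at 1413 CPM against 538, a ratio of 2.63 (2.55 to 2.71). Sdf2l1, a cofactor of the ER chaperone BiP, was 2.74-fold higher, P4hb, a protein disulfide isomerase, 2.54-fold, and Hspa5, BiP itself, 2.10-fold. Xbp1, a transcription factor of the unfolded protein response, was 1.68-fold higher, and Herpud1, a target of that response, was at 69.8 against 60.4 CPM.

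Of the heme pathway, the entry enzyme stood apart from the rest. Alas1, the first enzyme of the pathway, rate-limiting outside red cells (chr9:106233455-106248654, GRCm38), was 8.01-fold higher (7.18 to 8.93). The other 11 measured genes of the 12 held 5 that were lower and 0 higher, and the list's median log2 was −0.56; centred on the median gene, 3 were lower. Alad, the next enzyme, was 2.51-fold lower (2.06 to 3.08), and Blvrb, which reduces biliverdin, 4.24-fold lower. Alas2, the red cell form, had 0 UMIs in granule-high cells and was below the measuring limit.

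Metabolic genes differed between pathways. Of 18 measured glycolysis genes, 9 were higher and 2 lower, with a median log2 of 0.51. Ldhb, a lactate dehydrogenase subunit, was 5.48-fold higher (4.59 to 6.53), Hk3, a hexokinase of myeloid cells, 4.14-fold, Pgam1, phosphoglycerate mutase, 2.55-fold, and Gapdh 1.59-fold. Pfkm, a phosphofructokinase subunit, was 1.70-fold lower and Slc2a3, a glucose transporter, 5.14-fold lower. Nuclear genes of oxidative phosphorylation had 0 of 26 past 1.5-fold in either direction, with a median of 0.21, though 4 were higher once centred on the median gene, and ribosome biogenesis had 1 of 25, Srm, higher.

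The NADPH oxidase makes superoxide, from which the hydrogen peroxide that myeloperoxidase uses is formed. Of its 6 genes, 2 were higher and 0 lower, and 4 were higher once centred on the median gene. Cybb, the catalytic subunit, was 4.21-fold higher (3.58 to 4.94) but was seen in only 31.1% of granule-high cells before thinning (1.14% of Klf1-positive cells), and Cyba, its partner, was 1.60-fold higher. Rac2, the GTPase of the complex, was at 738 against 858 CPM.

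**Figure D3:**
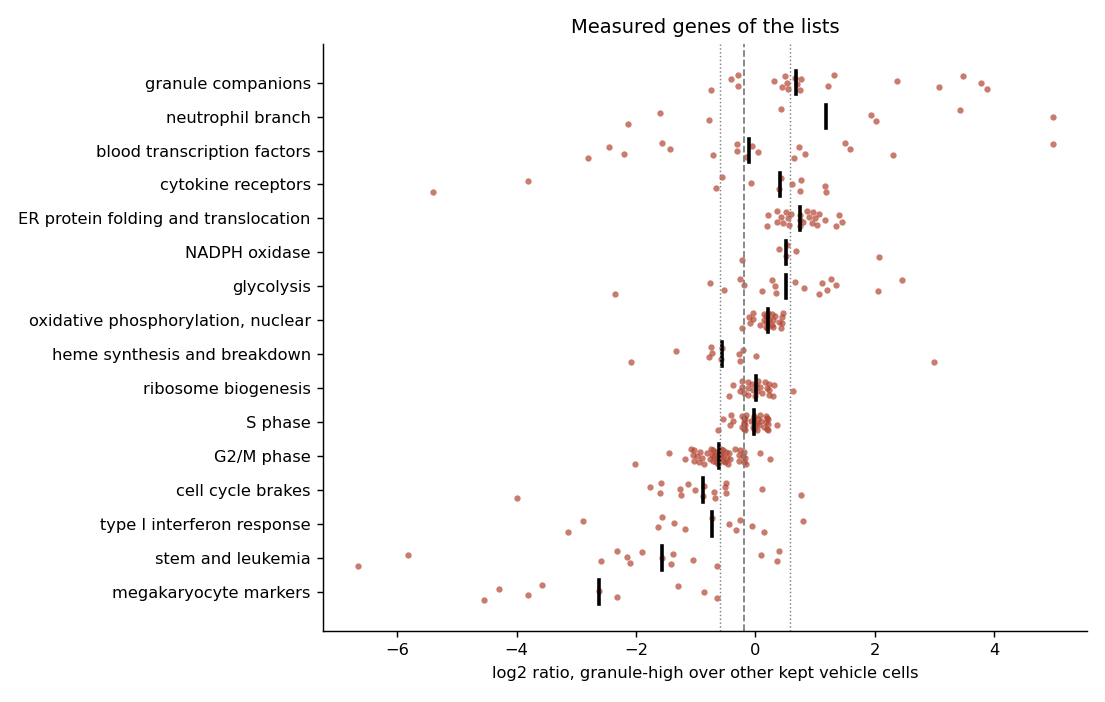
Each point is a measured gene of the named list, placed by its log2 ratio of granule-high over other kept vehicle cells (horizontal axis), with list medians as black bars; the dashed line is the median of all 8002 genes at −0.18 and the dotted lines mark 1.5-fold. The ER list lies wholly above 0 and the megakaryocyte list wholly below it, while the transcription factors spread from −2.81 to 4.98.

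Transcription factors went in both directions. Of 18 measured factors, 7 were higher and 6 lower. Their median log2 was −0.11 (0.08 when centred on the median gene), while their summed level was higher, at 1866 against 1510 CPM. Within the C/EBP family, Cebpd was 4.97-fold higher (4.48 to 5.50), Cebpb 2.99-fold (2.66 to 3.36) and Cebpa 1.77-fold (1.52 to 2.06), while Cebpg, which lacks a transactivation domain, was 1.63-fold lower. Spi1 was at 320 against 192 CPM, Myb, a factor of proliferating progenitors, at 345 against 221, and Id1, an inhibitor of helix-loop-helix factors, at 44.8 against 15.8. The erythroid and megakaryocyte factors Gata1 and Gfi1b were 6.99-fold and 4.58-fold lower, the Gata1 cofactor Zfpm1 5.48-fold lower, and Gata2, a factor of stem and mast cells, 2.98-fold lower. Runx1, a factor of all blood progenitors, was at 180 against 187.

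The receptors likewise went in both directions. Csf2ra and Csf2rb, the chains of the GM-CSF receptor, were 2.23-fold and 2.27-fold higher, and Il3ra, the interleukin 3 receptor, 1.70-fold. Il6ra was 1.69-fold higher and Ifngr1, an interferon gamma receptor chain, 1.52-fold. Epor, the erythropoietin receptor, had 1 UMI in granule-high cells, and Il17ra was 1.57-fold lower. In all, 5 of 12 measured receptors were higher, and Csf3r, the G-CSF receptor, was at 64.9 against 48.3 CPM.

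Idh1, the target of AG-120 in its mutant form, was among the higher genes. It stood at 155 CPM in granule-high cells and 55.9 in the others, a ratio of 2.78 (2.53 to 3.05). After thinning, 56.5% of granule-high cells (48.7 to 64.0) and 26.4% of others had an Idh1 UMI, against 89.3% and 42.9% before. Gene counts do not separate mutant from normal transcripts. Idh2, its mitochondrial relative, was at 313 against 286 CPM, Dnmt3a at 67.8 against 92.8, Nras at 45.9 against 63.3 and Ptprc, the CD45 antigen, at 68.9 against 104.

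Genes of stem cells and of leukemia cells were lower. Of 15 measured genes of that list, 12 were lower and 0 higher, with a median log2 of −1.57. Ltb, a cytokine of the TNF family, was 6.04-fold lower (5.27 to 6.96), Meis1, a partner of HOX factors, 4.98-fold (4.27 to 5.84), Sox4, a progenitor factor, 4.29-fold (3.79 to 4.86), and Angpt1, angiopoietin 1, 3.73-fold (3.40 to 4.10). Tox, with 1 UMI, and Mn1, Erg and Adgrg1 were also lower. The 3 exceptions were Cd34, the progenitor antigen, at 382 against 297 CPM, Cd47, at 391 against 296, and Lmo2, at 150 against 140.

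More mitotic than replication genes were lower. Of 47 measured G2/M genes 25 were lower and 0 higher (median log2 −0.61), whereas of 36 S phase genes 1, Rfc2, was lower (median −0.03). The G2/M count was 13 when centred on the median gene and 40 at a threshold of 16000 CPM, and the S phase counts were 0 and 6. Mki67 was at 110 against 226 CPM and Cenpf, a kinetochore protein, at 39.6 against 109, while Mcm2, a replication helicase subunit, was at 158 against 123. The thinned G2/M sum had a median of 21 UMIs in granule-high cells and 16 in the others, but its 90th percentile was 59.1 against 106. The sets thus differed in the upper part of the distribution, where the other cells were higher, and not in that direction at the median.

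Genes that restrain the cycle were lower as well. Of 17 measured, 12 were lower and 1 higher, with a median log2 of −0.88. Cdkn2d, an inhibitor of CDK4 and CDK6, was 3.04-fold lower (2.54 to 3.66), Btg2, an antiproliferative factor, 3.41-fold, and Txnip, an inhibitor of thioredoxin, 2.41-fold, while Pdcd4, a translation inhibitor, was 1.70-fold higher. Of 13 measured type I interferon response genes 7 were lower, among them Usp18, which restrains the pathway, at 7.45-fold. Only Bst2, the antiviral protein tetherin, was higher there, at 1.74-fold.

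Markers of other cell types give the limits of the population. All 9 measured megakaryocyte markers were lower (8 when centred on the median gene), with the list's summed level at 361 against 1163 CPM and Pf4 at 14.4 against 283. Itga2b, an integrin of platelets and early progenitors, was nevertheless seen in 47.6% of thinned granule-high cells (39.9 to 55.4) and 71.8% of others. Erythroid markers summed to 63.2 against 479 CPM, with 8 of 14 at 0, Klf1 by the rule. Of the 8 measured, 7 were lower and 1, Tfrc, was higher, at a log2 ratio of 0.74. B cell markers summed to 40.5 against 27.9, with 6 of 10 at 0, and of the T and NK cell markers 10 of 12 were at 0 while Nkg7, which also sits in granules, was 1.69-fold higher. The 11 dendritic cell markers summed to 132 against 99.8, with 7 at 0. Only 2 of them were measured, Bst2 at a log2 ratio of 0.80 and Tcf4 at −0.53.

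The basophil and mast cell list was mixed. It summed to 500 CPM against 435, with 4 of 10 genes at 0. Hdc was 10.3-fold higher, Cpa3, mast cell carboxypeptidase, was at 240 against 381, and Gzmb had 0 UMIs in granule-high cells. Fcer1a, Tpsb2 and Cma1 were also at 0, whereas Mcpt8, a basophil protease below the measuring limit, was at 31.9 against 3.32 CPM, with 43.2% of its UMIs in 1 cell, and was seen in 23.7% of granule-high cells. The part of such cells in the Hdc ratio was not tested.

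Genes of the neutrophil and monocyte branches differed in how many granule-high cells held them. Of 8 measured genes of the neutrophil branch 4 were higher and 3 lower. Pglyrp1, a bactericidal granule protein, was 4.04-fold higher and was seen in 95.5% of granule-high cells before thinning, against 54.2% of others and 19.3% of Klf1-positive cells. S100a8 was seen in 26.6%, 11.3% and 9.09% of the same cells. Anxa1, annexin A1, was 3.81-fold higher. Chil3, S100a8 and S100a9 were lower, but 32 neutrophil-like cells, which had at least 20 UMIs of the secondary granule genes and so stood among the other cells, held S100a8 at 61718 CPM. Measured against cells that also met the Klf1 and secondary granule parts of the rule, S100a8, S100a9 and Chil3 turned to log2 ratios of 3.58, 2.59 and 5.915, an alternative added after the data were seen. For the secondary granule list the rule itself caps Camp, Ngp, Ltf and Lcn2, so its 8 lower and 4 higher of 13 measured genes (median log2 −1.60, summed level 2537 against 2454 CPM) are no finding.

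Of 13 monocyte genes only 2 reached 500 UMIs in all kept cells. Ms4a6c, a membrane protein of monocytes, was 8.10-fold higher and was seen in 85.3% of granule-high and 3.41% of Klf1-positive cells before thinning, and Zeb2 was at 113 against 85.8 CPM. Irf8, the factor of the monocyte branch, was below the measuring limit, at 33.0 against 5.93 CPM, and 19.2% of granule-high and 1.14% of Klf1-positive cells had a UMI of it. Ly6c2, at 66.3 against 4.38, and F13a1, at 53.4 against 1.61, were likewise low and present in 19.8% and 15.8% of granule-high cells and in 0 of the 88 Klf1-positive cells.

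Along the granule sum the genes differed at different points. Kept cells that met the Klf1 and secondary granule parts of the rule were binned by the sum, with 2153 cells under 1000 CPM, 629 from 1000, 429 from 2000, 152 from 4000, 94 from 8000, 73 from 16000 and 10 from 32000. The last bin is thin and is given for completeness. Since the sum orders the cells, the levels are a description.

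Elane, part of the sum itself, and Cebpe were at most at 8.16 CPM in the first 4 bins. Elane was at 0.294, 0.539, 1.32 and 3.34 CPM in the first 4 bins, then at 316, 1101 and 5798. Cebpe was at 0.625, 0.431, 1.91 and 8.16, then at 125, 223 and 318. Hp had already reached 47.0 in the third bin and 148 in the fourth, then 389, 625 and 984. Alas1 was at 12.3, 16.2, 23.8 and 33.4 in the first 4 bins, then at 89.2 and, in the last bin, 311.

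Cebpa and Idh1 were at a higher level already below the threshold. Cebpa went through 25.3, 39.4, 52.5, 57.1, 65.3, 45.1 and 51.8 CPM, so that the fourth bin, below the threshold, was within the intervals of the bins above it. Idh1 went through 40.3, 61.2, 98.1, 128, 157, 156 and 133. Cd34 was highest just below the threshold, with 217, 451, 538 and 606 in the first 4 bins and 428, 330 and 296 in the last 3. Calr was higher in each next bin, from 477 to 1782.

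Stem and leukemia genes were lower from different bins on. Mycn was at 42.1, 12.9, 5.59 and 1.11 CPM in the first 4 bins and at 0.531 in the fifth. Ltb stayed at 374, 481, 451 and 307 before 80.2, 36.9 and 22.2. Sox4 followed with 366, 405, 312 and 231 before 93.5, 56.0 and 22.2. Meis1 went from 276 in the first bin to 158 in the fourth, 70.1 in the fifth and 22.5 in the sixth. Itga2b was nearly level from the second to the fifth bin, at 179, 160, 163 and 169.

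**Figure D4:**
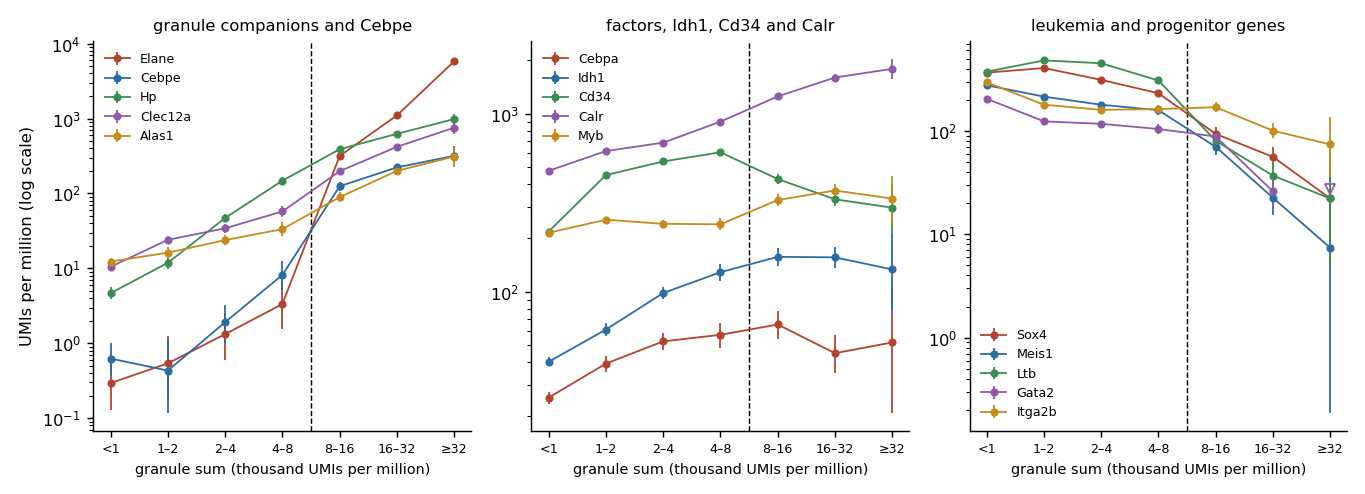
Pooled CPM (log scale) of 15 genes are plotted against the bin of the summed Mpo, Elane, Prtn3 and Ctsg level per cell, with exact Poisson 95% intervals, the dashed line at the threshold of 8000, and an open triangle for the upper limit of Gata2 at 0 UMIs. Elane and Cebpe are near 0 left of the line and 316 and 125 just right of it, Cebpa is level across it, and Sox4, Meis1 and Ltb are lower to its right.

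Among the genes ranked, which leave out the rule genes, granule-high cells varied most in rare, strongly expressed ones. In 170 of them with at least 6500 UMIs, each thinned to 6500, the Fano factor (variance over mean) was ranked over 1698 genes, with a median of 1.11. Prg2 led with 289, followed by S100a9 with 68.6, S100a8 with 68.0 and Stfa1, a stefin of neutrophils, with 36.1. In S100a9 3 cells held 85.9% of the thinned UMIs, in S100a8 61.7% and in Stfa1 49.6%. Cpa3 (6.29), Lyz2 (6.18) and the cell cycle genes Hist1h2ap (6.72), Ube2c (5.94) and Tuba1b (5.77) were less dominated by single cells, as were Hspa1a (5.71) and Jun (5.67), genes that respond to stress, and Tmsb4x (6.02). The ranking left out Mpo, Elane, Prtn3, Ctsg, Klf1, Camp, Ngp, Ltf and Lcn2, mitochondrial and ribosomal protein genes and gene models. Elane, so left out, was also uneven and not rare, with 90 thinned cells holding a UMI, 80 holding none and a maximum of 105.

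Several list sums went with the granule genes within the population. Over the 170 thinned cells, which share a library and a depth, Spearman's correlation coefficient with the summed rule genes was 0.50 for the ER list, 0.50 for the neutrophil branch, 0.42 for glycolysis, −0.50 for the stem and leukemia list and −0.24 for G2/M. The same coefficient between these sums and the depth before thinning was 0.21 for the ER list, 0.01 for the neutrophil branch, 0.30 for glycolysis, −0.18 for the stem and leukemia list and 0.33 for G2/M. The stem and leukemia sum ran from 1 to 35 UMIs per cell with a median of 10, against a median of 21 in the other cells. The ER sum ran from 33 to 153 with a median of 73.5, against 38.

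**Figure D5:**
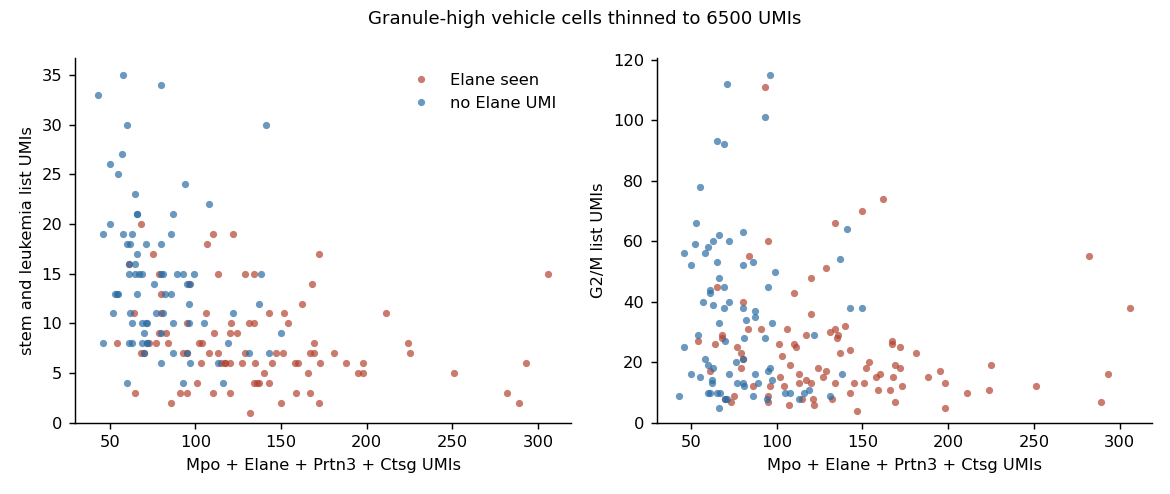
Each point is 1 of 170 granule-high vehicle cells thinned to 6500 UMIs, placed by its summed Mpo, Elane, Prtn3 and Ctsg UMIs (horizontal axis) and by its summed UMIs of the stem and leukemia list (left) or the G2/M list (right), in red where Elane was seen and in blue where it was not. All 8 cells with more than 200 rule-gene UMIs are red and hold 2 to 15 stem and leukemia UMIs, and cells without Elane reach the largest sums of both lists, 35 and 115 UMIs.

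Granule-high cells were divided by whether an Elane UMI was seen after thinning. Of the thinned cells 90 had an Elane UMI and 80 had none, with median granule sums of 19733 and 10785 CPM and median depths of 20030 and 19012. Since Elane entered the rule, the comparison of these parts is a description. Levels in each part pool all UMIs of its cells, before thinning. Cells with Elane had Prtn3 at 4883 against 1809 CPM, Hp at 643 against 335, and Alas1 at 187 against 95.1, and Cebpe was 1.60-fold higher (1.35 to 1.91). Idh1, at 147 against 160, and Cebpa, at 50.1 against 62.6, had intervals of the ratio that include 1.

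Of 8 measured genes of the neutrophil branch 6 were at least 1.5-fold higher in cells with Elane and 0 lower, and of 6 monocyte genes 2 were higher and 1 lower. Ly6c2 was at 119 against 1.92 CPM and F13a1 at 90.1 against 10.9, while S100a8 was at 741 against 9.58 but rested on few cells. The monocyte genes Ms4a6c, at 204 against 230, and Zeb2, at 85.3 against 134, were not higher in cells with Elane. Sox4 was at 38.4 against 118, Meis1 at 27.7 against 72.1, Angpt1 at 73.5 against 195 and Gata2 at 29.3 against 93.2. Of 9 stem and leukemia genes measured in this comparison 7 were at least 1.5-fold lower in cells with Elane, and of 29 G2/M genes 17, with Mki67 at 73.0 against 153. Median log2 ratios were 0.91 for the neutrophil branch, 0.48 for the monocyte branch, −1.38 for stem and leukemia and −0.76 for G2/M. All 4274 genes with at least 100 UMIs in these cells had a median of −0.06. The share of those genes past 1.5-fold was not counted, so the list counts have no background here. The 80 granule-high cells without an Elane UMI after thinning, which held 50 Elane UMIs before it, were also set against all other kept cells. Their G2/M median log2 was −0.18 where the whole population had −0.61, an alternative added after the data were seen.

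A second division followed Cpa3 and was chosen after the values were seen. The 38 thinned cells with at least 3 Cpa3 UMIs were compared with the 92 that had none. Levels again pool all UMIs before thinning, at median depths of 16464.5 and 20709.5 UMIs. Gata2 was at 112 against 31.0 CPM (3.62-fold, 2.54 to 5.16), Angpt1 at 230 against 73.4 and Itga2b at 245 against 80.9 (3.03-fold). Irf8 was at 4.60 against 50.5, F13a1 at 7.67 against 89.9, Cybb at 21.5 against 79.4 and Slpi at 107 against 322. S100a8 and S100a9 went the other way, 2.89-fold and 4.47-fold higher in the Cpa3 cells, each resting on few cells. The neutrophil branch sum, which includes both, was 1.58-fold higher there and the monocyte branch sum was at 413 against 660. The median log2 over the 8 measured neutrophil branch genes was 0.11, beside −0.03 for all 3494 genes of the comparison. Elane was seen in 14 of the 38 cells and in 61 of the 92, so the divisions by Cpa3 and by Elane overlap. Cd34 and Cebpe, at 353 against 377 and 170 against 153, had intervals of the ratio that include 1.

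Levels were also set beside progenitors with a low granule sum and beside the neutrophil-like cells of the library. In 1435 Cd34-positive cells with a granule sum under 1000 CPM, Cebpe was at 0.873, against 173 in granule-high cells and 401 in the 32 neutrophil-like cells. Sox4 was at 427, 74.9 and 8.78 in the same order. Calr was at 515, 1413 and 597 and Idh1 at 41.6, 155 and 75.5, so that both were highest in granule-high cells. Camp was at 0.287 in granule-high cells and 16105 in neutrophil-like cells, which the rule fixes.

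The same rule found 143 of 3756 kept cells (3.81%, 3.22 to 4.47) in the AG-120 library, with a median of 21282 UMIs per cell. Their Mpo level was 9613 CPM beside 9693 in the vehicle cells, and Cebpe was at 194 beside 173. Elane was at 2776 beside 859, Cpa3 at 643 beside 240 and Idh1 at 293 beside 155. Cd34 was at 197 beside 382, Clec12a at 120 beside 313, Slpi at 73.5 beside 224 and Tgfbi at 14.0 beside 105. With 1 library per treatment these values compare libraries, treatment and library cannot be told apart, and no difference was tested.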

How the data were processed

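Single-cell RNA of sorted I1DN progenitors was measured in 1 vehicle and 1 AG-120 library. The submitters' notes on processing list mm10 and GRCm38 as builds and, as tools, Seurat 4.0.4 and Cell Ranger 3.1.0. The matrix headers name software version 3.0.2. Per the labels' protocols a 5′ kit was used, whereas the design text names a 3′ platform. The deposited matrices hold raw UMI counts per gene and barcode, as whole numbers without normalization. A barcode was kept from 500 detected genes on if mitochondrial UMIs made up no more than 10%. No doublet caller was run.

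Counts were pooled per set and scaled to its total; ratios carry exact conditional binomial 95% intervals, shares Clopper-Pearson and levels Poisson intervals. A gene at 0 UMIs in granule-high cells was set to 3 counts. Genes with at least 500 UMIs over kept vehicle cells were measured, and 1.5-fold was used as a description. Shares said to be thinned, Fano factors, list sums per cell and their correlations used cells thinned to 6500 UMIs (random seed 1), which left out 7 granule-high and 354 other cells. Other shares are before thinning. The divisions by Elane and Cpa3 sorted cells by thinned counts, but their levels and ratios pool all UMIs of those cells, so depth was not equalised there. Gene positions come from GENCODE (GRCm38), in which 30934 of 31053 identifiers were found. Tools were Python 3.11.15, numpy 2.4.6, scipy 1.17.1, pandas 2.3.3 and matplotlib 3.10.9.

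The members and the gene lists were chosen with earlier results of these data known. The text names the rule genes and markers, and the extremes of the ratio (20 highest, 15 lowest, without rule, mitochondrial, ribosomal protein and sex-linked genes or gene models). It also names up to 10 members of each list by UMIs, further listed factors, receptors and model genes, and the 12 highest Fano factors. Not every listed factor and receptor is described above: Id2, which was lower, and Gfi1, below the measuring limit, are among those left out. Prg3, Epx, Alas2 and the less abundant members of some lists were named after their values were seen. A listed receptor is not reported here.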

Additional observations from a re-analysis of the deposited data

How the results depend on the processing

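The number of granule-high cells was 329 at a threshold of 4000 CPM and 83 at 16000. Centred on the median gene, 617 genes were at least 1.5-fold higher and 842 lower, against 381 and 1362. With a threshold of 4000, 821 genes were lower. Counting genes from 100 UMIs gave 661 higher and 2198 lower, and from 1000 UMIs 884 lower. At a threshold of 16000 the log2 ratios of Prg2 (−3.50) and S100a8 (0.0796) reversed. Against cells that met the other parts of the rule, Chil3 (5.915), S100a8 (3.58), S100a9 (2.59) and Wfdc21 (2.84) reversed. In granule-high cells without an Elane UMI after thinning, Elane itself (−0.54) and Kif2c (0.042) did. Both alternatives were added after the data were seen. Under the other settings 0 of 349 named genes reversed.

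No paired analysis was possible because each treatment has 1 library. The depth limits genes at few UMIs: a count of 0 over the granule-high cells allows 0.861 CPM. The number of mice, doublets and free RNA in droplets bear on all levels and were not tested. Replicate libraries would be needed to give any ratio an error beyond counting.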
